A study of Saccharomyces cerevisiae with 5 samples.

Results

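The genes described here encode the mannoproteins of the yeast cell wall and the enzymes that build, cross-link and cut its glucan and chitin. A list of 58 genes was matched by symbol to the spots of both array platforms, and all 58 were found, among 5582 genes with a value on at least 1 array. GAS1 had spots on the first platform alone. By role, 27 members are mannoproteins, 23 are synthases, transglycosidases, hydrolases and wall proteases, and 8 belong to neither class (the SUN family, KRE9 and daughter-cell wall genes). The 5 arrays form 1 group, in which RNA that came down with zzYra1 in an immunoprecipitation (IP) was compared, as cDNA, with total RNA of Saccharomyces cerevisiae in the second colour. Channel 1 held the IP RNA on arrays 1 and 3, and channel 2 held it on the other 3 arrays (2, 4 and 5). Because arrays 1 and 2 bear the same label with exchanged channels, their mean was used as replicate 1. Arrays 3, 4 and 5 were replicates 2, 3 and 4. The arrays shared little of their ratios. Pearson's r between the deposited ratios of arrays 1 and 2 was 0.0077 over 3814 genes and -0.26 over 41 members. Between the other pairs of arrays it ran, over all shared genes, from -0.045 (arrays 1 and 3) to 0.23 (arrays 3 and 5). The strain, the growth conditions and a mock precipitation are not given in the sources used here, and the labels do not say whether the arrays came from separate cultures.

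Yra1 is an adaptor that binds RNA in the nucleus and hands messenger ribonucleoproteins to the export receptor Mex67. The yeast wall has an inner layer of glucan with a little chitin and an outer coat of heavily glycosylated mannoproteins, most of them attached to glucan through the remnant of a glycosylphosphatidylinositol (GPI) anchor and others, the Pir proteins, linked to glucan directly. Glucan and chitin synthases lie in the plasma membrane, and secreted transglycosidases and glucanases remodel the polymer as the bud grows and the daughter separates. Several mannoprotein mRNAs are among the abundant messages of growing yeast, and most proteins of the list enter the secretory pathway.

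Values are the deposited ratios of the 2 channels on the log2 scale, minus the median of all spots on the same array, so 0 is the median spot. The direction of the deposited ratio is not given, and "higher" and "lower" refer to the ratio as deposited. On 4 of the 5 arrays the sign of the uncentred median followed the channel of the IP RNA (median log10 ratio -1.39, 1.34, -0.853 and 0.302 on arrays 1 to 4, and -0.141 on array 5). A ratio with a fixed order of channels would change sign in this way on arrays 1 to 4, and array 5 departs from it. If the ratio is channel 1 over channel 2, the values of arrays 2, 4 and 5 have to change sign to run the same way as those of arrays 1 and 3. Means over replicates as deposited, and replicate 1 itself, would in that case mix opposite directions. Results are therefore also given with arrays 2, 4 and 5 turned. Array 5 stood apart in spread, with an SD over spots of 2.30, against 0.848 to 1.15 on the others. Its values also followed the order of spot numbers, which stands here for the place on the slide. Spearman's rho was taken between a spot and the median of other genes' spots in a window of 81 spot numbers. It was 0.756 over 3333 spots, against 0.504, 0.169, 0.365 and 0.314 on arrays 1 to 4. No row or column coordinates were used, so neighbouring spots and position below refer to this order. The means of members with a value in all 4 replicates and the difference between the classes are also given without array 5.

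Coverage of the wall genes differed between arrays much as that of all genes did. Array 1 had a value for 58 members, array 2 for 41, array 3 for 32, array 4 for 30 and array 5 for 17, which is 29.3% of the members, against 30.8% of all genes. On arrays 1 to 4 the members had 100%, 70.7%, 55.2% and 51.7%, against 99.3%, 68.9%, 48.5% and 57.3% of all genes. Mannoproteins were measured somewhat more often than the enzymes on array 2 (85.2% of mannoproteins and 65.2% of enzymes). The same held on array 3 (63.0% of mannoproteins and 52.2% of enzymes) and on array 5 (37.0% of mannoproteins and 26.1% of enzymes). On array 4 it was 51.9% of mannoproteins and 56.5% of enzymes. In all, 4 members had a value on 5 arrays, 17 on 4 arrays, 18 on 3 arrays, 17 on 2 arrays and 2 (EXG2 and SIM1) on array 1 alone. Spots of 1 member on the same array differed by a pooled SD of 0.78 on array 1 (14 members with 2 spots), 0.88 on array 2 (6 members), 0.53 on array 3 (19), 0.54 on array 4 (22) and 0.71 on array 5 (15). A ratio of a single array below about 1 is thus within the reach of spot error. In spot order the 2 spots of a member were side by side on arrays 3 to 5 and apart on arrays 1 and 2. Spots side by side in this order may share their place on the slide, so their agreement is not taken to measure the same error.

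**Figure D1:**
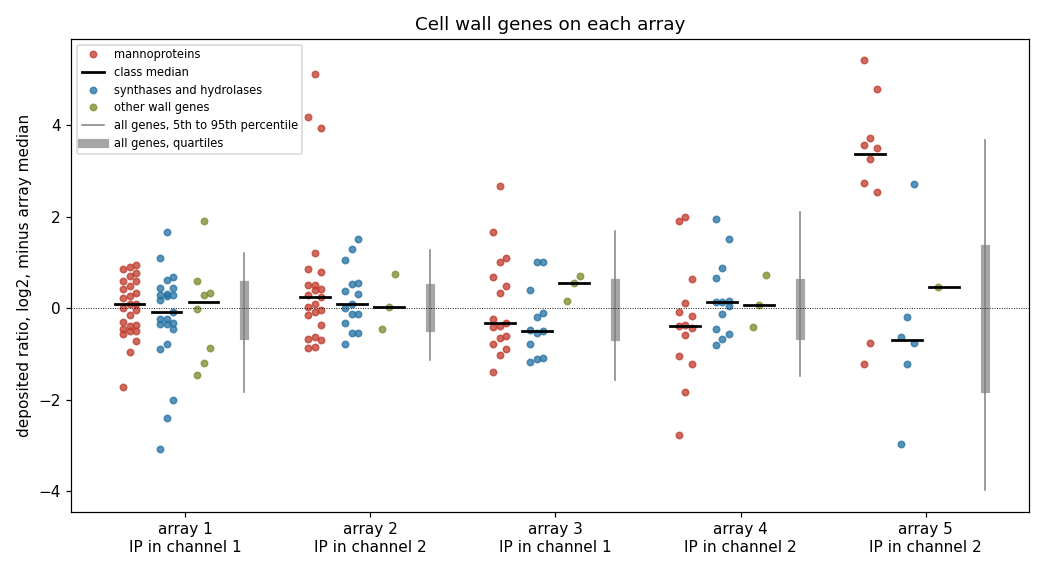
Deposited ratio of each cell wall gene on each array (log2, minus the array median), with mannoproteins in red, synthases and hydrolases in blue and other wall genes in olive. Black lines are class medians and grey bars the quartiles and the 5th to 95th percentile of all genes. On array 5 the mannoprotein median lies at 3.38 and the enzyme median at -0.69. On the other 4 arrays each of these 2 classes has a median between -0.49 and 0.25.

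The wall genes lay on both sides of the array median. Above it were 30 of 58 members on array 1, against 49.4% of all genes, 24 of 41 on array 2, against 50.2%, 13 of 32 on array 3, against 47.6%, 14 of 30 on array 4, against 48.7%, and 10 of 17 on array 5, against 48.2%. On array 1, 3 of 58 members lay more than 1 above it (5.17%), against 8.92% of all genes, and 6 lay more than 1 below (10.3%), against 14.4%. On array 2 it was 7 of 41 members above (17.1%), against 8.53%, and 0 below, against 6.68%. These shares are as deposited, and with the channel 2 arrays turned those above and below change places on arrays 2, 4 and 5. On array 3, 6 of 32 lay above (18.8%), against 13%, and 5 below (15.6%), against 13.6%. On array 4, 4 of 30 lay above and 4 below (13.3% each), against 14% above and 12.5% below of all genes. On array 5, 9 of 17 members lay more than 1 above (52.9%), against 29.8% of all genes, and 3 below (17.6%), against 34.8%. On array 5 the members' shares thus departed most from those of all genes, on both sides of the median.

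Among the GPI mannoproteins, CWP2, which encodes a small and abundant structural wall protein, had the most extreme single value of any member in absolute terms apart from ECM33. CWP2 had -1.73 and 5.12 on arrays 1 and 2 of the first platform, and -0.79 and 3.25 on arrays 3 and 5 of the second. It was the highest of 3845 genes on array 2 (percentile 100) and lay at percentile 5.96 on array 1. The gene has 2 spots on the first platform, which were close to each other on both arrays. They read -2.02 and -1.44 on array 1, and 4.92 and 5.32 on array 2, where they were the 4th and the 1st of 4931 spots. The spots next to them with a value did not share these ratios: the medians of the 4 neighbours were 0.09 and -0.09 on array 1, and on array 2 the 2 neighbours with a value, both beside the spot at 4.92, had -0.57 and -0.56. With the channel 2 arrays turned, CWP2 lay below the median on all 4 arrays, at -1.73, -5.12, -0.79 and -3.25. It was the 1 member of 21 with a value on 4 or 5 arrays to do so, against 5.54% of the 1895 genes so measured, so a single member is close to the background. CWP1, its neighbour on the chromosome and another structural GPI mannoprotein, stayed between -0.39 and 0.02 on 3 arrays.

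TIP1 and the TIR genes encode serine-rich mannoproteins known to be induced by cold or by lack of oxygen. TIR4 had 0.09, 4.18, -0.16 and 2.54 on arrays 1, 2, 4 and 5. TIR2, which lies next to TIR4 on the chromosome, had -0.37, 3.94, 0.49 and -0.08 on arrays 1 to 4. On the first platform both were high on array 2 and near the median on array 1. On array 2 TIR4 was the 8th and TIR2 the 14th of 4931 spots. The neighbouring spots there had a median of 0.24 beside TIR4 and 0.09 beside TIR2. TIP1 had 0.08, 0.33, -1.83 and 4.80 on arrays 1, 3, 4 and 5, and TIR1 had 0.89, 0.10, -0.43 and 2.73 on arrays 1, 2, 4 and 5. In both, the highest value was that of array 5 and the lowest that of array 4, which held the IP RNA in the same channel. The low TIP1 value of array 4 came from 1 spot, beside 2 spots of other genes at -5.24 and -4.46. TIR3 and DAN1, an anaerobic wall protein gene, had values on 3 arrays, between -0.64 and 0.87 in TIR3 and between -0.89 and 0.59 in DAN1. Members of this family are similar in sequence, so cross-hybridisation between them and their own signal cannot be told apart.

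CCW12, which encodes a short and heavily glycosylated GPI protein of growing walls, was the member with the most even high values on the second platform. It had 2.67, 1.90 and 3.56 on arrays 3, 4 and 5, with percentiles of 98.4, 94.0 and 94.1. Its 6 spots there, side by side on each array, read between 1.46 and 3.63. On the first platform it had -0.71 on array 1 and 0.25 on array 2, and its spots disagreed: 0.11 and -1.52 on array 1, and -0.91 and 1.42 on array 2. The arrays of the 2 platforms did not overlap in this gene. Arrays 3 and 4 held the IP RNA in opposite channels, and with the channel 2 arrays turned CCW12 had 2.67 on array 3, -1.90 on array 4 and -3.56 on array 5. ECM33, a GPI protein gene required for wall integrity, had 0.22, 0.51 and -1.03 on arrays 1 to 3 and 5.42 on array 5. There its spots read 5.49 and 5.35 and its neighbours in spot order -2.92 and -2.29. This was the highest value of any member on array 5, at percentile 99.7.

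The remaining 4 genes of the GPI group, which leaves out the adhesion genes given below, had values of 0.34 or less. SPI1, a gene of weak-acid and stationary-phase stress, had -0.45, -0.67 and -2.78 on arrays 1, 2 and 4 and the lowest mean of the mannoproteins measured on fewer than 4 arrays (-1.30). Its mean was 1.00, the highest of these genes, with the channel 2 arrays turned. Its value on array 4 came from 1 spot. CCW14, a glycoprotein gene of the inner wall layer, lay at -0.96 and -0.88 on arrays 1 and 2. SED1, an abundant wall protein gene of stationary phase, stayed between -0.33 and 0.26 on 3 arrays, and PST1, a paralog of ECM33, between -1.40 and 0.34 on 3 arrays.

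The 4 PIR genes form 2 pairs of neighbours on the chromosomes, PIR1 with PIR3 and HSP150 with CIS3. HSP150 had 0.85, 0.39 and -0.23 on arrays 1 to 3 and 3.51 on array 5. CIS3 had -0.39, 0.50 and 1.00 on arrays 1 to 3 and 3.73 on array 5. HSP150 and CIS3 were thus high together on array 5 and within about 1 of the median elsewhere. On array 3 the spots of CIS3 read 2.04 and -0.03, so its value there has little precision. PIR3 had 0.70, 1.20, 0.68 and -0.39 on arrays 1 to 4, and PIR1 stayed between -0.40 and 0.0035 on 3 arrays.

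Of the 8 adhesion genes, AGA1 and AGA2 were measured on array 5, and both lay below its median. AGA2, the adhesive subunit of a-agglutinin, lay below the median on all 4 arrays that measured it, at -0.49, -0.64, -0.60 and -1.22 on arrays 1, 2, 3 and 5. It was the 1 member of 21 below the median throughout, against 6.33% of all genes measured on 4 or 5 arrays. AGA2 lay above the median on 2 arrays and below it on 2 once the channel 2 arrays were turned, with a mean of 0.19. AGA1, the wall anchor of the same agglutinin, had -0.77 on array 5, with spots at 0.28 and -1.82. FLO5, a flocculin gene of a family of near-identical repeats, had 0.94, -0.05, 1.10 and 2.00 on arrays 1 to 4. FLO11, the adhesin of filamentous growth and biofilms, had 0.59, -0.85, 1.66 and -1.22 on arrays 1 to 4. Its sign followed the channel of the IP RNA on all 4 arrays, and with the channel 2 arrays turned it lay at 0.59, 0.85, 1.66 and 1.22. It was the 1 member of 21 above the median throughout in that reading, against 4.54% of all genes. FLO1, FLO9 and FLO10 had values on 2 arrays each, between -1.05 and 0.64. SAG1, the alpha-agglutinin gene, had the highest mean (0.28) of the mannoproteins measured on fewer than 4 arrays, with 0.42, 0.80 and -0.37 on arrays 1, 2 and 4. The turned mean of SAG1 was -0.0013, which was no longer the highest. YGP1, a secreted glycoprotein gene of nutrient limitation, had 0.48, -0.70 and -0.60.

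**Figure D2:**
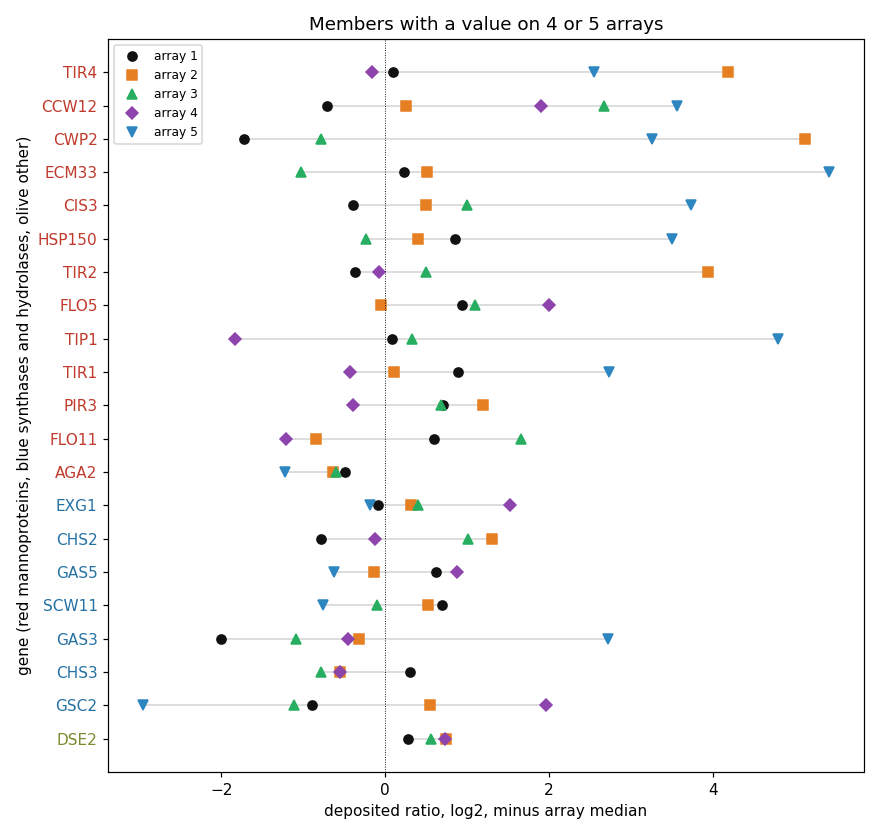
Deposited ratio (log2, minus the array median) of the 21 cell wall genes with a value on 4 or 5 arrays, with 1 symbol for each array and genes ordered by mean within class. As deposited, AGA2 lies below 0 and DSE2 above 0 on 4 arrays each, and the other 19 genes have values on both sides. With the channel 2 arrays turned, which is not drawn, CWP2 lies below 0 and FLO11 above 0 on 4 arrays each, and AGA2 and DSE2 lie on both sides.

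Among the synthesis genes, GSC2 and FKS1 encode alternative catalytic subunits of glucan synthase. GSC2 had -0.90, 0.54, -1.12, 1.96 and -2.96 on arrays 1 to 5. Its highest value, on array 4, was the mean of spots at 3.11 and 0.80, and its lowest, on array 5, lay among neighbouring spots at a median of -3.74 and -2.90 for its 2 spots. FKS1 had -0.24 and -0.53 on arrays 1 and 2. Of the chitin synthases, CHS2, which forms the primary septum, had -0.78, 1.30, 1.02 and -0.13 on arrays 1 to 4. CHS3, which makes most wall chitin, had 0.30, -0.55, -0.79 and -0.55 on the same arrays, and CHS1, the repair enzyme, stayed between -0.35 and 0.16. KRE6, needed for glucan branches that anchor GPI proteins, had the highest mean (0.89) of the enzymes measured on fewer than 4 arrays, from 1.67 on array 1 and 0.10 on array 2 (0.79 with the channel 2 arrays turned). Its homolog SKN1 had 0.29 and -1.19 on arrays 1 and 3.

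The GAS genes encode glucanosyltransferases that lengthen glucan chains. GAS3 had -2.01, -0.32, -1.09, -0.46 and 2.72 on arrays 1 to 5 and was the single enzyme above the median on array 5, where its spots read 1.20 and 4.24. Its value on array 1 lay in a low stretch of the spot order, since the 4 neighbouring spots ran from -1.98 to -1.43. GAS5 had 0.62, -0.14, 0.88 and -0.62 on arrays 1, 2, 4 and 5, with both spots of array 4 close together (0.85 and 0.91). GAS1, the main enzyme of the family, had -0.33 and -0.79 on arrays 1 and 2. CRH1 and UTR2, which link chitin to glucan, stayed between -0.23 and 0.17.

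Of the glycoside hydrolases, EXG1, the major secreted exoglucanase, had -0.09, 0.32, 0.39, 1.52 and -0.19 on arrays 1 to 5, with array 4 highest at percentile 91.6. SCW11, a glucanase-like wall protein of daughter cells, had 0.69, 0.53, -0.10 and -0.75 on arrays 1, 2, 3 and 5. SCW10, a glucanase-like wall protein, had the lowest mean (-1.01) of the enzymes measured on fewer than 4 arrays, from -3.07 on array 1 and 1.06 on array 2 (-2.07 with the channel 2 arrays turned). It was the lowest member on array 1, at percentile 0.505, while its 4 neighbouring spots had a median of 0.10. DSE4, a daughter-cell endoglucanase gene named here after its values were seen, had -2.41 on array 1, 1.52 on array 2 and -0.68 on array 4. On array 1 its 4 neighbouring spots had a median of -2.69 and ran from -2.94 to 0.59, so other genes beside DSE4 were as low. BGL2, SCW4, CTS1, ROT2 and EXG2 completed the hydrolases, between -1.22 (ROT2 on array 5) and 1.09 (CTS1 on array 1, with spots 2.20 apart). The neighbouring protease genes YPS1 and YPS3 stayed between -0.80 and 0.37.

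Of the 8 genes in neither class, DSE2, a daughter-specific secreted protein gene, had 0.28, 0.74, 0.56 and 0.72 on arrays 1 to 4. It was the 1 member of 21 above the median on every array with a value, against 5.54% of all genes. Turning the channel 2 arrays put DSE2 above the median on 2 arrays and below it on 2, with a mean of -0.16. KRE9, a gene of glucan assembly, had the highest mean (1.18) of the genes in neither class, from 1.90 on array 1 (percentile 99.4) and 0.46 on array 5 (0.72 with the channel 2 arrays turned). SIM1, of the SUN family, had the lowest at -0.88 on array 1. The other SUN genes were SUN4 at 0.60 and 0.71, NCA3 between 0.023 and 0.34 and UTH1 at -0.0086 and -0.46, and the daughter genes EGT2 and DSE1 lay between -1.47 and 0.062.

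The test across replicates covered the 703 genes of the arrays with a value in all 4 replicates, among them 5 wall genes: CCW12, TIP1, EXG1, GAS3 and GSC2. With limma and Benjamini-Hochberg adjustment, 0 of these 5 passed an adjusted p of 0.05, and so did 0% of all genes tested. At an unadjusted p under 0.05 it was 1 of 5, CCW12, against 7.82% of all genes (55 genes). CCW12 had -0.23, 2.67, 1.90 and 3.56 in replicates 1 to 4, a mean of 1.98 ± 1.62 (SD, n = 4) with a 95% interval of 0.42 to 3.53 (limma, unadjusted p = 0.0183, adjusted p = 0.54). Without replicate 2 or replicate 3 the unadjusted p of CCW12 was 0.0678 and 0.0566 (limma), with means of 1.74 and 2.00. With the channel 2 arrays turned the mean was -0.82 ± 2.64 (SD, n = 4; limma, adjusted p = 0.92), and 0 of the 5 members had an unadjusted p under 0.05, against 2.42% of all genes. On the second platform alone, CCW12 averaged 2.71 ± 0.83 (SD, n = 3; limma, unadjusted p = 0.0050, adjusted p = 0.28), against 9.23% of 704 genes under an unadjusted p of 0.05, and CCW12 was the 1 of 5 members below that level.

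**Figure D3:**
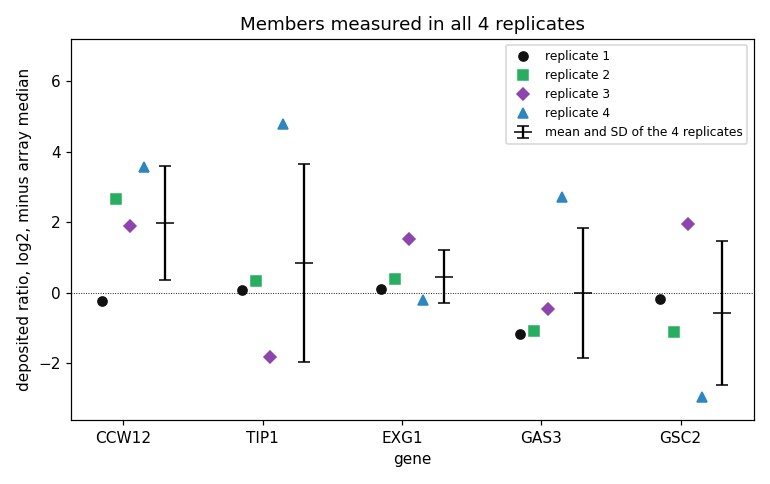
The 5 cell wall genes with a value in all 4 replicates (log2, minus the array median), with a symbol for each replicate and, at the right of each gene, the mean with an SD bar over 4 replicates. CCW12 has 3 replicates above 1.8 and 1 at -0.23, and the SD bars of TIP1, EXG1, GAS3 and GSC2 all cross 0.

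The other 4 tested members had means smaller than their spread. TIP1 averaged 0.84 ± 2.81 (95% interval -1.29 to 2.98), EXG1 0.46 ± 0.75 (-0.80 to 1.72), GAS3 0.0015 ± 1.84 (-1.65 to 1.66) and GSC2 -0.57 ± 2.05 (-2.33 to 1.18), each as SD over 4 replicates. Their adjusted p from limma ran from 0.74 (TIP1) to 1.00 (GAS3). In TIP1, GAS3 and GSC2 the sign rested on replicate 4: without it the means were -0.47, -0.90 and 0.22, and CCW12 and EXG1 had 1.45 and 0.68. The median of the 5 means was 0.46, against 0.042 over all 703 genes. With a value in at least 3 replicates, 26 members and 2422 genes could be tested. Again 0 passed (0% of all genes), and 1 of 26, CCW12, had an unadjusted p under 0.05, against 4.91% of all genes. Of the 26 means, 19 lay above 0, against 46.8% of all genes, and the median was 0.44, against -0.052. With the channel 2 arrays turned as well, 9 of the 26 lay above 0, against 49.0% of all genes, and the median was -0.17, against -0.018. In that setting CWP2 (-2.49 ± 1.47, SD, n = 3, unadjusted p = 0.0119) and FLO11 (1.20 ± 0.47, SD, n = 3, unadjusted p = 0.0456) were under an unadjusted p of 0.05 in limma (adjusted p = 0.93 for both), which is 2 of 26 members, against 2.81% of all genes.

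Mannoproteins were set against the synthases and hydrolases on each array by the difference of class medians. On array 1 the medians were 0.08 for 27 mannoproteins and -0.09 for 23 enzymes, a difference of 0.17. On array 2 they were 0.25 (23 mannoproteins) and 0.10 (15 enzymes), a difference of 0.15, and on array 3 they were -0.33 (17) and -0.49 (12), a difference of 0.16. On these 3 arrays the class medians lay close together, and with array 2 turned its difference was -0.15. On array 4 mannoproteins lay lower, with -0.38 (14 mannoproteins) and 0.13 (13 enzymes), a difference of -0.51. On array 5 the medians were 3.38 for 10 mannoproteins and -0.69 for 6 enzymes, a difference of 4.07. The median of all genes lay between -0.10 and 0.0026 on the 5 arrays. Over the 4 replicates the mannoprotein median averaged 0.69 ± 1.81 and the enzyme median -0.23 ± 0.42, with a difference of 0.92 ± 2.12 (SD, n = 4). Without replicate 4 the difference was -0.13 ± 0.34 (n = 3), and with the channel 2 arrays turned it was -0.89 ± 2.13 (n = 4). The difference between the classes was therefore smaller than the spread between replicates. In replicates 1 to 4 it was -0.030, 0.16, -0.51 and 4.07, so the sign of its mean rested on array 5. Replicate 1 was slightly negative though arrays 1 and 2 were each positive as deposited, since its medians were taken after averaging the 2 arrays.

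**Figure D4:**
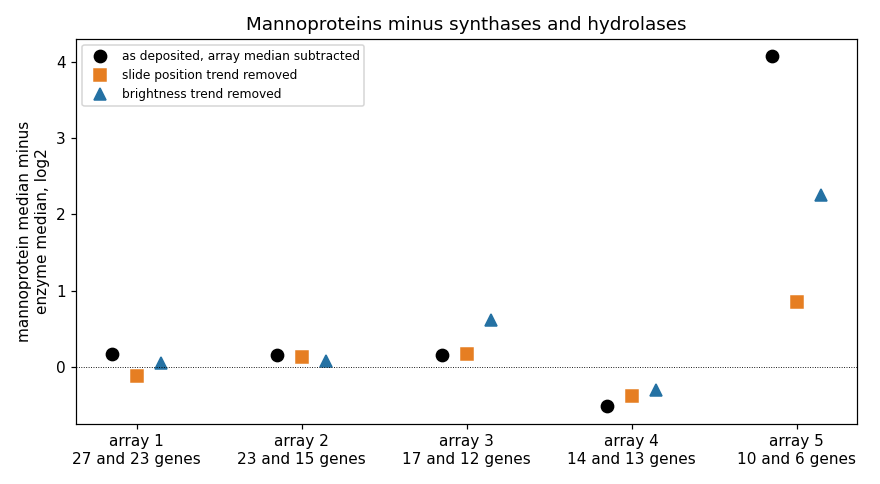
Median of the mannoproteins minus median of the synthases and hydrolases on each array (log2), from the centred ratios (circles), with the position trend removed (squares) and with the brightness trend removed (triangles). Position was taken from the order of spot numbers. Arrays 1 to 4 lie between -0.51 and 0.61, and the 3 values of array 5 are 4.07, 0.85 and 2.26. On array 5 they rest on 10, 7 and 9 mannoproteins, so the 3 values are not for the same genes.

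On array 5, 8 of 10 mannoproteins lay more than 1 above the array median and 1 of 6 enzymes did, against 29.8% of all genes. The 8 were CWP2 (3.25), TIP1 (4.80), TIR1 (2.73), TIR4 (2.54), CCW12 (3.56), ECM33 (5.42), HSP150 (3.51) and CIS3 (3.73), all from the groups called GPI and PIR here. The 2 others were the agglutinin genes AGA1 and AGA2. Adhesion genes were grouped apart whether or not their proteins carry a GPI anchor, so this is not a split by anchor. Each of the 8 had 2 spots with a value, side by side in spot order, and the lowest of these spots, in TIR4, read 2.43. The ratio on this array moved with spot brightness: Spearman's rho over 1583 genes was 0.66, against -0.44, 0.13, 0.20 and 0.18 on arrays 1 to 4. Of the mannoproteins, 9 had a recovered brightness, with a median percentile of 82.3, and the 6 enzymes had 68.8. With the brightness trend removed, the medians were 1.55 for 9 mannoproteins and -0.71 for 6 enzymes, a difference of 2.26, against 3.94 for the same genes before. With the position trend removed, they were 1.30 for 7 mannoproteins and 0.45 for 6 enzymes, a difference of 0.85. The 7 leave out TIP1, CIS3 and HSP150, which lay at 3.51 or above, so part of the step from 4.07 to 0.85 is a change of genes. ECM33 kept its value under both (5.44 without the brightness trend and 5.67 without the position trend), and CCW12 had 3.28 without the position trend. CWP2 had 0.62 without the position trend and had 2.41 without the brightness trend. HSP150 had 1.21, CIS3 3.44 and TIP1 3.44 without the brightness trend, and TIR4 had 0.58. Of the 2 low genes, AGA2 had -0.013 without the brightness trend and 0.25 without the position trend, so its low value here did not hold. AGA1 had -1.09 and -0.55. TIP1, HSP150 and CIS3 had too few spots nearby for a position trend.

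**Figure D5:**
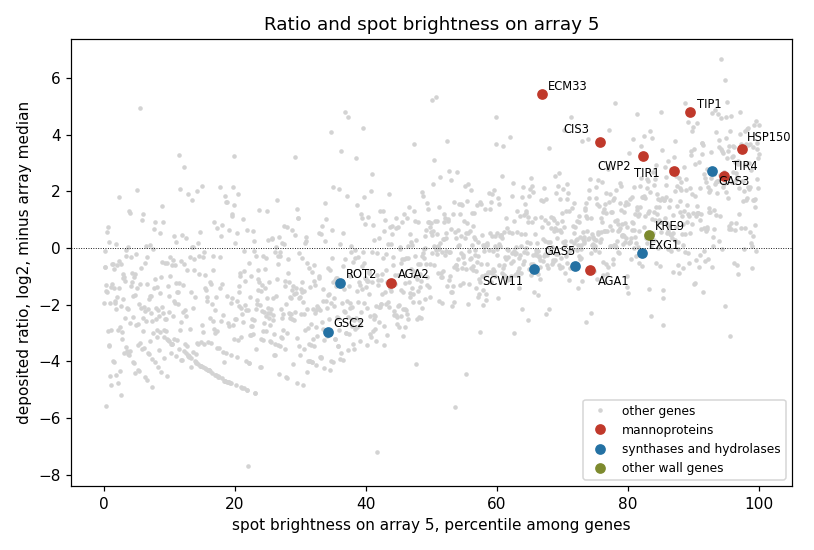
Deposited ratio on array 5 (log2, minus the array median) against spot brightness (percentile among 1583 genes), with other genes in grey, mannoproteins in red, synthases and hydrolases in blue and KRE9 in olive. Brighter genes have higher ratios, and ECM33 (5.42 at percentile 66.9) and CIS3 (3.73 at percentile 75.7) lie above most genes of like brightness, while AGA1 (-0.77 at percentile 74.2) lies below.

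Arrays 2, 4 and 5 held the IP RNA in the same channel, so turning them leaves their direction relative to each other unchanged. The uncentred median of array 5 departed in sign, so its direction is less sure. These arrays shared their ratios in a few members. On arrays 4 and 5, 8 members had values on both, and 1 of them, CCW12, lay on the same side of the median, against 551 of 1070 genes. On arrays 2 and 5 it was 9 of 14 members, against 602 of 1196 genes, with CWP2 and TIR4 above 2.5 on both. On arrays 2 and 4 it was 9 of 20 members, against 1142 of 2185 genes. Pearson's r over the shared members was -0.69 on arrays 4 and 5, 0.27 on arrays 2 and 5 and 0.082 on arrays 2 and 4. Over all shared genes it was 0.16, 0.035 and 0.12. Over these 3 arrays alone, 7 members were tested and 0 passed (limma, 0% of 735 genes), while 1 of 7, TIR4, had an unadjusted p under 0.05, against 5.71% of all genes. TIR4 averaged 2.19 ± 2.19 (SD, n = 3; limma, unadjusted p = 0.0494, adjusted p = 0.71).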

How the data were processed

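Ratios of 2-channel spotted arrays were analysed, 2 arrays with 7680 spots and 3 with 12800. The authors deposited, per the file headers, 1 log10 ratio per spot and array. The sources used here do not give the image analysis, the background correction or any filter. The log base was settled from the values: as base 10 logarithms, 44.9% to 95.2% of 1500 values per array matched, within 0.51 of a unit in the last deposited decimal, a ratio of whole numbers with a product under 100000000, against at most 6.73% for base 2 or e. These whole numbers served as spot brightness, which is inexact. The direction of the ratio stays unknown.

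Values were put on the log2 scale and centred on each array's median, with spots of 1 gene averaged. GEO's platform annotation named 6695 and 11138 spots, and 5578 of 5583 and 5534 of 5539 gene identifiers matched RefSeq assembly R64, used for names and neighbours only. Tests used limma 3.58.1 in R 4.3.3 (lmFit, eBayes, Benjamini-Hochberg, threshold 0.05) on all genes with a value in all 4 replicates, and were tested on simulated data. Since separate cultures are not stated, p-values cover the spread among these 5 arrays, which may be technical and whose small number limits the precision. Trends on position (median of other genes' spots in a window of 81 spot numbers, at least 10 values) and brightness (lowess, fraction 0.4) were removed as alternatives. Python 3.11.15, numpy 2.4.6, pandas 2.3.3, statsmodels 0.14.6 and matplotlib 3.10.9 were used. Members with a value on at least 4 arrays were described array by array, with the highest and lowest mean of the rest of each class. The members, classes and alternatives were chosen with earlier results of these data known.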

Additional observations from a re-analysis of the deposited data

Results flagged for a closer look

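Array 5 stood apart from the other 4 arrays in 2 of 24 series of values checked with Dixon's test at 95%, where chance alone would flag about 1 in 20, or 1.2. The series were the 21 members with a value on 4 or 5 arrays, both class medians and their difference. The median of the mannoproteins on array 5 was 3.38, with the gap to the next array at 0.831 of the whole range. The mannoprotein median minus the enzyme median on array 5 was 4.07, with a gap of 0.852 of the range. This difference contains the mannoprotein median, so the 2 flags are not separate results. The arrays differ in spread, array 5 having the widest, which the test does not allow for. None of the 21 single genes was flagged this way.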

How the results depend on the processing

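The count of genes past the threshold was 0 in limma under all 16 alternatives run, while genes at an unadjusted p under 0.05 numbered 55 as reported, 17 with the channel 2 arrays turned, 19 with trend and robust and 84 of 1737 without replicate 4. The alternatives are not all separate: the second platform alone is the same fit as leaving out replicate 1. Taking the median of the spots left the tested members' means and the class medians unchanged. With the channel 2 arrays turned, in the genes of all 4 or of at least 3 replicates, the mean was -0.82 for CCW12, -0.28 for EXG1, -1.05 for GAS3 and -0.64 for TIP1, all of the other sign. GAS3 also turned with arrays scaled to the same spread (-0.50), with each array as a replicate (-0.23) and with the position trend removed (-0.083), the last of which turned GSC2 too (0.29). Leaving out 1 replicate at a time gave 1.45 to 2.71 for CCW12, 0.11 (without replicate 3) to 0.68 for EXG1, -0.90 to 0.39 for GAS3, -1.42 to 0.22 for GSC2 and -0.47 to 1.74 for TIP1. The cause was not tested. Class medians moved by less than their SD over replicates under the 17 alternatives run, a wide margin, since the difference ranged from -0.89 to 1.96. With the position trend removed, which left fewer members, it was 0.16 ± 0.51. With the channel 2 arrays turned and without replicate 4 the difference was 0.16 ± 0.34 (n = 3). The alternatives on position, brightness and the joint settings were chosen after seeing the data, and the brightness alternative left none of the 5 tested members. No paired analysis was possible because the arrays form 1 group. On array 5, 17 of 58 members had a value.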
